A study of Mus musculus with 16 samples.

Results

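The set described here is 49 mouse genes of DNA replication and S phase, chosen by symbol from lists of the replication machinery. No measured value enters the rule, but the lists were drawn up with earlier results of these data known. All 49 had at least 1 probe on the array, among 22328 named genes, and a gene with several probes was represented by its brightest. RNA came from lymph node T lymphocytes of OT-1 mice, whose transgenic T cell receptor recognises the ovalbumin peptide SIINFEKL. All mice were OT-1 heterozygous on a Rag-/- background, which removes endogenous antigen receptors. The WT group carried Lck and the Lck-/- group is labelled as lacking this Src-family kinase, which acts at the first step of T cell receptor signalling. The series title adds (OFF) to Lck-/-, a term that the sources used here do not explain. Cells of both groups were cultured ex vivo with 100 nM peptide for 24 h, and 100 µg/ml cycloheximide was added for the last 10 min to hold ribosomes on their mRNAs. Sucrose gradients of 10 to 50% separated each lysate, fractions 1 to 5 formed the sub-polysomal pool, and fractions 6 to 10 formed the polysomal pool of mRNAs that carry several ribosomes. Every extract was hybridised to 2 Agilent arrays with the pools in swapped dyes, so that 4 WT and 4 Lck-/- extracts occupied 16 arrays. The series design calls the extracts biological replicates, but the labels name neither the age of the mice nor whether each extract was 1 animal, so p-values measure the spread between these extracts.

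Replication begins when the origin recognition complex, CDC6 and CDT1 load rings of MCM2 to MCM7 onto DNA. S-phase kinases then add CDC45 and the GINS complex to each ring, which makes the active helicase. Primase and polymerases alpha, delta and epsilon copy the strands behind it, with the sliding clamp PCNA, its loader RFC and the single-strand binding protein RPA. Naive T cells are quiescent, and antigen induces many of these genes as they enter the cell cycle.

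The number of probes well above background per array was 14619 to 50776 in the polysomal channel (median 20212.5) and 12531 to 30976 in the sub-polysomal channel (median 22889). The highest value belonged to the first array of Lck-/- replicate 1, which stood apart from the rest. In WT replicates 1 and 2 the paired arrays went against their labels: deviations of the polysomal ratio from the WT mean correlated at -0.83 and -0.80 within these extracts, and at 0.45 to 0.84 in the other 6. With the 2 dye-swap arrays exchanged the correlations were 0.86 and 0.93. The main counts of called members are therefore given with the labelled pairing, with the exchanged pairing and without these WT extracts. Values per extract, their SDs and counts of groups without overlap use the labelled pairing only. The exchange stays within WT, so it changes the error of a difference between the genotypes and not its size. Lck itself was lower in every Lck-/- extract, at 14.03 to 14.36 against 14.72 to 15.17 log2 units in WT (difference -0.85 ± 0.14 SE, adjusted p = 0.0030). Whether its probe lies in the removed part of the gene is not given in the sources used here. All 10 T cell markers were detected, and 1 was called higher and 1 lower. Of 5 NK cell markers 3 were detected, with a summed level of 10.99 to 12.39 in Lck-/- and 10.03 to 10.59 in WT. Of the 2 NK markers tested, 1 was called higher in Lck-/-. The detected NK markers include Eomes, a factor that activated CD8 T cells also express. Detected were also 2 of 6 B cell, 3 of 7 myeloid, 1 of 5 dendritic, 3 of 6 stromal, 2 of 2 CD4 and 2 of 3 erythroid markers. None of those tested was called, with 0 stromal markers tested, and the sums of each list overlapped between the groups. The erythroid sum was 8.77 to 10.90 in Lck-/- and 8.45 to 9.02 in WT. The part of other cell types in the results was not tested.

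In the mean of the polysomal and sub-polysomal levels, 12 of 44 tested members were lower in Lck-/- and none was higher. This mean averages the log2 levels of both pools with equal weight, whatever the RNA content of each. It is thus a relative measure and not the total amount of an mRNA. A member was called when its adjusted p (limma, Benjamini-Hochberg over all 9393 tested genes) was under 0.05. Over all genes, 11.1% were called lower and 8.91% higher. The median difference of the members was -0.22 log2 units, against 0.03 for all genes, and 34 members had a negative difference, as 46.1% of all genes did. The 12 members encode 3 GINS subunits, 5 subunits of polymerases alpha and epsilon with primase, 2 clamp loader subunits, the smallest RPA subunit and the nuclease-helicase DNA2. No member of origin recognition and licensing, of the fork protection group, of the S-phase kinases or of chromatin assembly was called. Less mRNA per cell and fewer cells that express a gene cannot be told apart in these bulk extracts.

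**Figure D1:**
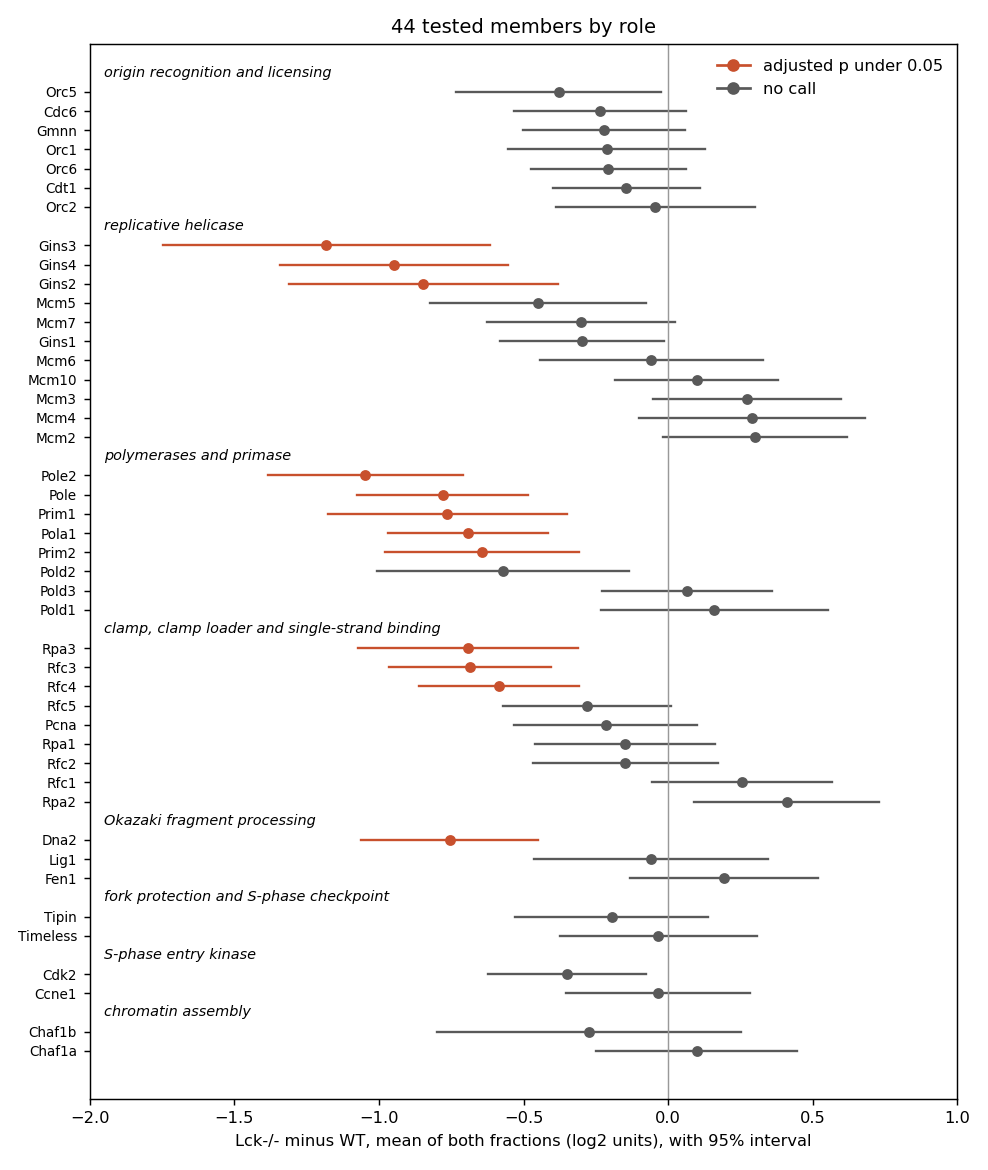
Difference between Lck-/- and WT in the mean of both fractions (log2 units, horizontal axis) for the 44 tested members, grouped by role, with 95% intervals from limma. The 12 members in colour were called lower; they run from -1.18 for Gins3 to -0.58 for Rfc4, and the highest value among the others is 0.41 for Rpa2.

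The groups of 4 extracts did not overlap, with Lck-/- lower, for 13 members, where 13% of all genes tested behaved so. These were the called members other than Gins2, whose highest Lck-/- extract passed the lowest WT extract, together with Gmnn and Cdk2. With the exchanged dye swaps the same 12 members were called lower and none higher, against 9.87% and 7.72% of all genes. Without WT replicates 1 and 2 the count was 9, against 5.6% of all genes, and Gins2, Prim1 and Rfc4 were lost. Within slide 1 alone it was 8 (5.87% of all genes) and within slide 2 alone 10 (7.21%). With slide and dye as terms over all 16 arrays it was 13 (12.2%), with Mcm5 added. The last setting also called Rpa2 higher (adjusted p = 0.025). Leaving out each extract in turn gave 10 to 15 members, where 7.08% to 11.8% of all genes were called lower. Gins2 and Prim1 lost their call without WT replicate 3 (adjusted p = 0.057 and 0.054), and Gins2 and Rpa3 lost theirs without Lck-/- replicate 4 (0.057 for each).

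**Figure D2:**
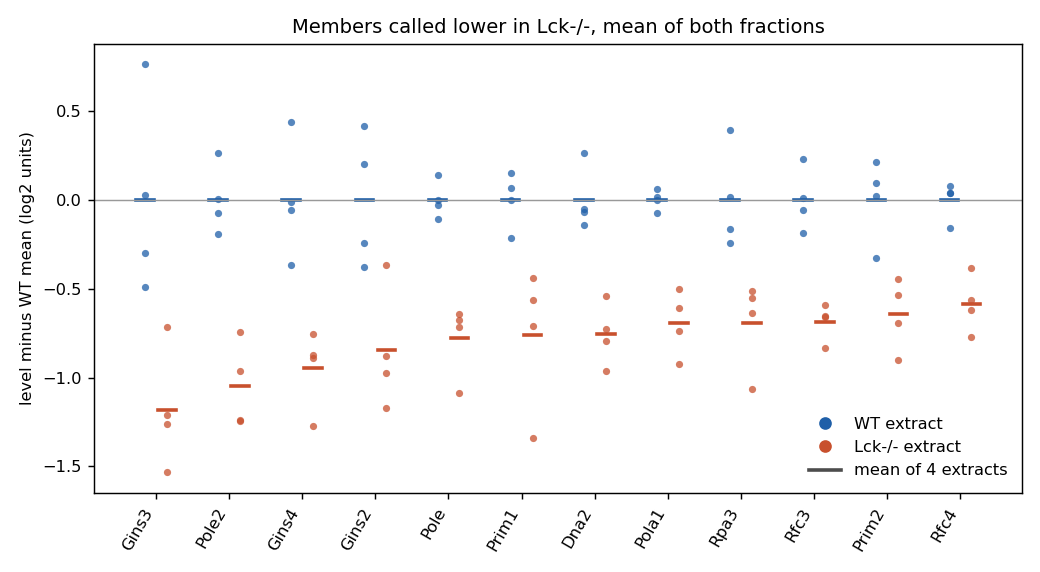
Level of each called member in every extract, as the difference from its WT mean (log2 units), in the mean of both fractions. Points are extracts and bars are the means of 4; the Lck-/- points lie below all WT points for every gene but Gins2, where 9.11 in Lck-/- replicate 1 is above 9.10 in WT replicate 4.

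Within the replicative helicase, 3 of 4 GINS subunits were lower in Lck-/-. GINS joins CDC45 and the MCM ring at each fork and is needed for the helicase to unwind DNA. Gins3, the PSF3 subunit (probe at chr8:98168040-98168099 of mm9, plus strand), measured 12.38, 12.05, 13.11 and 11.86 log2 units in WT replicates 1 to 4 and 11.09, 10.82, 11.63 and 11.14 in Lck-/- replicates 1 to 4. No Lck-/- extract reached the lowest WT extract, and the difference of -1.18 ± 0.26 (SE) was the lowest among the members (2.27-fold lower, adjusted p = 0.011). Gins4, the SLD5 subunit, measured 10.43, 10.47, 10.92 and 10.12 in WT and 9.73, 9.61, 9.60 and 9.21 in Lck-/-. Its groups were also separate, at a difference of -0.95 ± 0.18 (adjusted p = 0.0060). Gins2, the PSF2 subunit, measured 9.68, 9.24, 9.90 and 9.10 in WT and 9.11, 8.31, 8.60 and 8.51 in Lck-/- (difference -0.85 ± 0.21, adjusted p = 0.019). Gins1, or PSF1, had a difference of -0.30 with a 95% interval of -0.58 to -0.01 and was not called (adjusted p = 0.12).

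None of the 6 subunits of the MCM ring was called in the mean over extracts. The ring is the motor of the helicase and is loaded in G1 in excess over the origins that fire. Mcm2 measured 11.91, 12.11, 11.75 and 12.22 in WT and 12.18, 12.56, 12.22 and 12.22 in Lck-/-. Its Lck-/- values lay in the upper part of the WT range or above it, and the interval of the difference was -0.02 to 0.62. Mcm6, the ring subunit with the smallest difference, measured 15.26, 15.42, 14.78 and 15.46 in WT and 15.32, 15.41, 14.96 and 14.99 in Lck-/- (interval -0.44 to 0.33). Mcm3 (difference 0.27) and Mcm4 (0.29) also overlapped between the groups. Mcm5 and Mcm7 had differences of -0.45 (adjusted p = 0.083) and -0.30 (0.17). Mcm10, which helps to activate the loaded ring, stood at 0.10 (interval -0.18 to 0.38). The difference between the GINS and MCM sets was not tested as such.

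**Figure D3:**
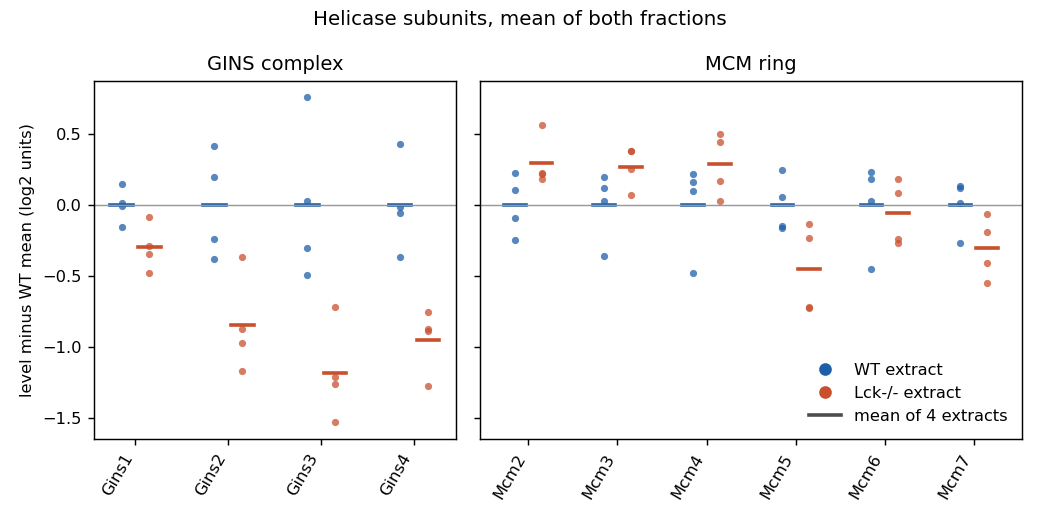
Levels of the 4 GINS and 6 MCM ring subunits in every extract (log2 units relative to the WT mean, mean of both fractions). The Lck-/- points of Gins2, Gins3 and Gins4 average -0.85, -1.18 and -0.95, while the means of the MCM ring subunits lie between -0.45 and 0.30; in single pools the MCM calls changed with the scaling.

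In the mean of both fractions, 3 GINS subunits were lower and 0 MCM ring subunits were called with Agilent's processed signals, without scaling between arrays and with each channel centred on its median. Median centring of the ratio leaves this mean as it is, so it tests nothing here. In single pools the calls depended on that setting. In the polysomal pool it called 4 GINS subunits and Mcm5, Mcm6 and Mcm7 lower, along with 21.2% of all genes, whose median moved to -0.31. In the sub-polysomal pool it called Gins3 lower and Mcm2, Mcm3 and Mcm4 higher, where 36.6% of all genes were called higher and their median was 0.36. The dye-swap pairing mattered too. In the polysomal pool Gins2 and Gins4 were called in the main fit. No GINS subunit was called there with the exchanged dye swaps or without WT replicates 1 and 2. In the sub-polysomal pool the exchange left Gins2 and Gins4 called lower. Without WT replicates 1 and 2 only Gins3 was called there.

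Among polymerases and primase, 5 of 8 tested members were lower. Pole2, the second subunit of the leading-strand polymerase epsilon, had the lowest adjusted p of the set (0.0019). It measured 9.14, 9.02, 9.22 and 9.48 in WT and 7.98, 8.47, 8.25 and 7.97 in Lck-/-, without overlap, a difference of -1.05 ± 0.15 (2.07-fold lower). Pole, the catalytic subunit of the same enzyme, measured 12.02, 12.05, 12.19 and 11.94 in WT and 11.38, 10.96, 11.40 and 11.34 in Lck-/-. The groups did not overlap, and the difference was -0.78 ± 0.13 (adjusted p = 0.0041). Dimmer Pole probes, which failed the background filter, gave -0.06 and -0.05.

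All 3 tested subunits of the polymerase alpha-primase complex, which makes the RNA-DNA primers, were lower as well. Prim1, the catalytic primase subunit, measured 12.93, 12.86, 13.01 and 12.65 in WT and 12.30, 11.52, 12.42 and 12.15 in Lck-/- (difference -0.76 ± 0.19, adjusted p = 0.018). Pola1, the catalytic polymerase subunit, measured 11.11, 11.10, 11.02 and 11.16 in WT and 10.49, 10.60, 10.17 and 10.36 in Lck-/- (difference -0.69 ± 0.13, adjusted p = 0.0050). Prim2, the large primase subunit, ran from 10.64 to 11.18 in WT and from 10.06 to 10.52 in Lck-/- (difference -0.64, adjusted p = 0.016). None of the 3 overlapped between the groups. A dimmer Prim2 probe, which failed the background filter, gave a difference of 0.23. Of the lagging-strand polymerase delta, none of the 3 tested subunits among the members was called, while Pold4, its small subunit and no member, was lower (-0.68, adjusted p = 0.012). Pold1, its catalytic subunit, stood at 0.16 (interval -0.23 to 0.55), Pold3 (11.61 to 12.08 in WT, 11.88 to 12.11 in Lck-/-) at 0.06 (-0.23 to 0.36) and Pold2 at -0.57 (adjusted p = 0.063).

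Of the 9 clamp, clamp loader and single-strand binding members, 3 were lower. Rfc3, a small ATPase of the clamp loader, measured 8.51, 8.44, 8.72 and 8.31 in WT and 7.84, 7.66, 7.90 and 7.84 in Lck-/- (difference -0.69 ± 0.13, adjusted p = 0.0057). Rfc4, another small subunit of the loader, measured 12.90, 12.90, 12.94 and 12.71 in WT and 12.09, 12.25, 12.48 and 12.30 in Lck-/- (difference -0.58 ± 0.13, adjusted p = 0.010, and -0.48 from a dimmer probe). Both were separate between the groups, whereas Rfc1, the large subunit, stood at 0.25 (interval -0.06 to 0.57), Rfc2 (11.90 to 12.28 in WT, 11.75 to 12.24 in Lck-/-) at -0.15 and Rfc5 at -0.28, none of them called. RPA is a trimer, and its subunits gave different results. Rpa3, its smallest subunit, measured 12.27, 12.19, 12.45 and 12.83 in WT and 11.92, 11.88, 11.79 and 11.37 in Lck-/- (difference -0.69 ± 0.17, adjusted p = 0.019). Rpa2, the middle subunit, measured 10.73, 10.59, 10.46 and 10.34 in WT and 11.23, 10.74, 10.79 and 10.99 in Lck-/-. It was the only member whose Lck-/- values all exceeded the WT values in this comparison, where 12.4% of all genes behaved so. Its difference of 0.41 ± 0.15 was not called over the extracts (adjusted p = 0.068). Rpa1, the large subunit, had -0.15 (adjusted p = 0.48) from its brightest probe and -0.50 from a dimmer probe. Pcna, the clamp itself, had -0.22 (interval -0.53 to 0.10).

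Dna2, which cuts long flaps during Okazaki fragment maturation, was lower. It measured 8.20, 8.27, 8.29 and 8.60 in WT and 7.38, 7.80, 7.61 and 7.54 in Lck-/-, without overlap (difference -0.76 ± 0.14, adjusted p = 0.0054). A dimmer Dna2 probe, which failed the background filter, gave -0.18. The flap endonuclease Fen1 measured 13.55, 13.48, 12.97 and 13.27 in WT and 13.59, 13.44, 13.38 and 13.62 in Lck-/- (difference 0.19, interval -0.13 to 0.52). DNA ligase 1, Lig1, measured 13.69, 13.69, 12.93 and 13.17 in WT and 13.44, 13.18, 13.16 and 13.47 in Lck-/- (-0.06, interval -0.46 to 0.35). Both overlapped between the groups and neither was called.

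The 7 licensing members all had negative differences, from -0.38 to -0.04, and none was called. With Agilent's processed signals Orc5 was called lower (-0.91, adjusted p = 0.046), as was the kinase gene Cdk2 (-0.53, adjusted p = 0.031). Orc5, a subunit of the origin recognition complex, had the lowest of these, with 7.65, 7.89, 8.03 and 8.15 in WT and 7.23, 7.87, 7.58 and 7.52 in Lck-/- (adjusted p = 0.12). Orc2 had the highest, with 9.62, 9.46, 9.84 and 9.81 in WT and 9.90, 9.82, 9.51 and 9.33 in Lck-/- (interval -0.39 to 0.30). Both overlapped between the groups. Cdc6, which loads the MCM ring, ran from 9.56 to 10.00 in WT and from 9.50 to 9.75 in Lck-/- (difference -0.24, adjusted p = 0.23). Gmnn, the inhibitor of CDT1, measured 10.95, 10.89, 10.83 and 10.86 in WT and 10.81, 10.38, 10.72 and 10.74 in Lck-/-. The groups did not overlap, but the difference of -0.22 was not called (adjusted p = 0.23). Cdk2, the kinase of S-phase entry, measured 8.82, 8.49, 8.61 and 8.81 in WT and 8.27, 8.41, 8.23 and 8.40 in Lck-/-, again separate and not called (difference -0.35, adjusted p = 0.068). Its partner Ccne1 ran from 13.00 to 13.33 in WT and from 12.81 to 13.30 in Lck-/-, a difference of -0.04, while another probe gave -0.60. Tipin and Timeless hold the helicase to the polymerases. Tipin measured 14.17, 14.28, 14.25 and 13.93 in WT and 14.32, 13.71, 13.91 and 13.90 in Lck-/- (difference -0.20). Timeless measured 11.58, 11.65, 11.23 and 11.37 in WT and 11.14, 11.33, 11.50 and 11.73 in Lck-/- (-0.03). Chaf1a and Chaf1b are subunits of the histone chaperone CAF-1, which assembles nucleosomes behind the fork. Chaf1a ran from 10.34 to 10.85 in WT and from 10.38 to 10.91 in Lck-/- (0.10). Chaf1b ran from 12.11 to 12.60 in WT and from 11.35 to 12.52 in Lck-/- (-0.27), the wider spread being in Lck-/-.

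The remaining 5 members were not tested in the mean. Cdc45, Pola2 and Clspn passed the background filter of 6 arrays of 8 per genotype in the polysomal channel and not in the other. The checkpoint kinase gene Chek1 passed on 4 of 8 arrays of each genotype and channel, and ran from 6.93 to 7.17 in WT and from 6.78 to 7.22 in Lck-/-. Ccne2, the second cyclin E gene, passed on 0 or 1 of 8 arrays and was not well above background.

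In the polysomal pool alone, 13 of 47 tested members were lower in Lck-/- and none was higher, against 9.37% lower and 5.6% higher over all 10292 genes. The median difference was -0.40 for the members and near 0 for all genes, with a negative difference for 35 members and 50.2% of all genes. The groups did not overlap, with Lck-/- lower, for 17 members, where 13.1% of all genes behaved so. Pole2 measured 9.17, 9.03, 9.45 and 9.46 in WT and 7.73, 8.45, 8.16 and 7.85 in Lck-/- (difference -1.23 ± 0.19, adjusted p = 0.0030). Rpa3 measured 12.72, 12.71, 13.12 and 13.11 in WT and 11.87, 12.25, 11.91 and 11.58 in Lck-/- (difference -1.01 ± 0.18, adjusted p = 0.0056). Both were separate between the groups.

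Pola2, the second subunit of polymerase alpha, was called in this pool. It measured 7.76, 7.66, 7.85 and 7.80 in WT and 7.23, 7.28, 7.26 and 7.29 in Lck-/- (difference -0.50, adjusted p = 0.029). Clspn, the checkpoint adaptor claspin, measured 8.06, 8.15, 8.05 and 8.07 in WT and 7.38, 7.63, 7.50 and 7.71 in Lck-/- (difference -0.53, adjusted p = 0.028). Both calls were lost with the exchanged dye swaps (adjusted p = 0.073 for Pola2 and 0.064 for Clspn). They were also lost when any single WT extract or Lck-/- replicate 3 was left out. Cdc45 measured 8.43, 8.19, 8.20 and 8.27 in WT and 7.71, 8.18, 7.40 and 8.17 in Lck-/- and was not called (difference -0.41, adjusted p = 0.17). Its Lck-/- extracts lay below all WT extracts, but 2 of them by a small margin.

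The polysomal count was the less stable. It was 6 with the exchanged dye swaps, where 4.82% of all genes were called lower and 1.95% higher. Without WT replicates 1 and 2 it was 2 (Pole2 and Rpa3), against 2.11% of all genes. Leaving out a single WT extract gave 8 (replicate 1, 6.41% of all genes), 8 (replicate 2, 5.39%), 7 (replicate 3, 5.15%) and 11 (replicate 4, 6.32%). Within slide 1 the count was 0 (0.651% of all genes), within slide 2 it was 15 (9.49%), and with slide and dye as terms it was 15 (10.3%).

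In the sub-polysomal pool, 10 of 44 tested members were lower and 1 was higher in Lck-/-, against 10.8% lower and 8.54% higher over all 9703 genes (19.3% either way). The median difference was -0.17 for the members and 0.05 for all genes, and 28 members had a negative difference, against 45.6% of all genes. Gins3 measured 12.73, 12.42, 13.75 and 12.64 in WT and 11.32, 11.22, 11.74 and 11.25 in Lck-/-, a gap with no overlap and a difference of -1.50 ± 0.26 (2.83-fold lower, adjusted p = 0.0042). The call was lost with the exchanged dye swaps (adjusted p = 0.069). Rpa2 measured 10.56, 10.45, 10.33 and 10.25 in WT and 11.27, 10.75, 10.93 and 11.21 in Lck-/-. It was higher in 4 of 4 Lck-/- extracts than in any WT extract, by 0.64 ± 0.15 (adjusted p = 0.015). With the exchanged dye swaps 7 members were lower, where 6.69% of all genes were called lower and 4.24% higher, and Rpa2 missed the threshold (adjusted p = 0.052). Without WT replicates 1 and 2 the counts were 6 lower and 1 higher, against 6.98% and 3.97% of all genes. The lower count was also 6 when WT replicate 3 (7.75% of all genes), Lck-/- replicate 3 (6.65%) or Lck-/- replicate 4 (6.84%) was left out. It was 11 within slide 1 (13% of all genes), 1 within slide 2 (1.39%) and 13 with slide and dye as terms (11.7%).

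Of the 44 members tested in both pools, 9 were called lower in both: Dna2, Gins2, Gins4, Pola1, Pole, Pole2, Prim1, Rfc3 and Rfc4. Over all genes tested in both pools the share was 5.71%. With the exchanged dye swaps 3 members were left (Dna2, Pole and Pole2), against 3.09% of all genes, and without WT replicates 1 and 2 only Pole2, against 1.55%. Within slide 1 there was none (0.644% of all genes) and within slide 2 only Rfc3 (1.12%), and with slide and dye as terms there were 8 (6.37%). Prim2 and Rpa3 were called in the polysomal pool and not in the sub-polysomal pool, and Gins3 the other way round.

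**Figure D4:**
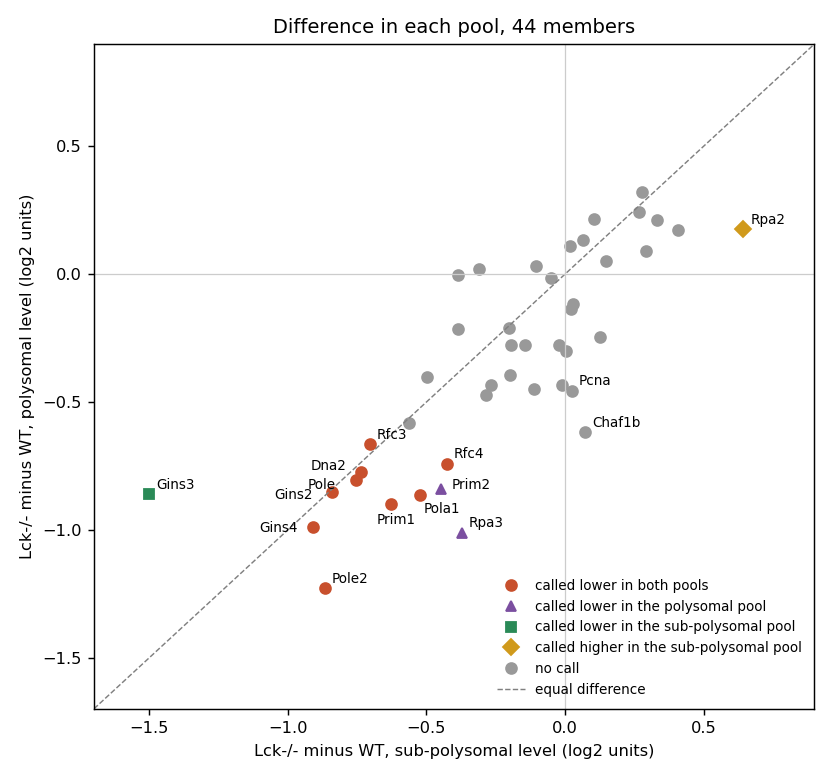
Difference between Lck-/- and WT in the polysomal pool (vertical, log2 units) against the sub-polysomal pool (horizontal, log2 units) for 44 members, with the line of equal difference. The 9 members called lower in both pools lie in the lower left; Gins3 sits at -1.50 and -0.86, and Rpa2 at 0.64 and 0.17.

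Whether a difference was unequal between the pools was tested directly on the polysomal ratio, the log2 level in the polysomal pool over that in the sub-polysomal pool. None of the 43 tested members was called, where 0.967% of 8482 genes were called lower and 2.69% higher, 3.65% in all. The members' median was -0.12 and that of all genes -0.04, with a negative difference for 31 members and 55.8% of all genes. The groups did not overlap, with Lck-/- lower, for 6 members and 8.67% of all genes. With the exchanged dye swaps no member was called, but 0% of all genes were called lower there and 0.483% higher. Without WT replicates 1 and 2 no member was called either, where 0.0236% of all genes were called lower. With slide and dye as terms 1 member (Prim2) was called lower, against 1.78% of all genes. Within slide 1 there was none (0.0472%), and within slide 2 there was 1 (Chaf1b, against 0.0237%). The nearest was Chaf1b, with ratios of -0.15, -0.13, 0.23 and 0.46 in WT and -0.45, -0.65, -0.39 and -0.88 in Lck-/-. No values overlapped, and the difference was -0.69 ± 0.17 (adjusted p = 0.052). Pcna had ratios of 0.49, 0.70, 0.69 and 0.90 in WT and 0.25, 0.42, 0.11 and 0.09 in Lck-/- (difference -0.48 ± 0.13, adjusted p = 0.076). Rpa2 had 0.33, 0.27, 0.26 and 0.18 in WT and -0.09, -0.01, -0.29 and -0.44 in Lck-/- (difference -0.47 ± 0.13, adjusted p = 0.074). The groups were separate for both genes. Without Lck-/- replicate 2, Pcna and Rpa2 were called lower, as were 1.71% of all genes.

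Gins3 ran the other way, with ratios of -0.70, -0.74, -1.28 and -1.56 in WT and -0.47, -0.82, -0.22 and -0.22 in Lck-/-. The groups overlapped, and the difference of 0.64 (interval 0.17 to 1.11) was not called (adjusted p = 0.14).

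The ratio is relative, since the typical mRNA of each array was set near 0. Before normalization, the median ratio of the members was 1.71, 1.49, 2.09 and 1.28 in WT replicates 1 to 4 and 0.30, 0.55, 0.97 and 0.88 in Lck-/- replicates 1 to 4. The median of all genes was 1.39, 1.16, 1.71 and 1.02 in WT and 0.21, 0.38, 0.77 and 0.68 in Lck-/-. All WT extracts thus stood above all Lck-/- extracts for the members and for the genes as a whole. Labelling used 1.5 µl per pool whatever its RNA content, so amounts of RNA, labelling and ribosome loading cannot be told apart in this shift. With median centring, 36 of 43 members and 55.4% of all genes were called lower in the ratio.

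Within WT cells, 23 of 43 members had ratios above that of the typical mRNA and 8 below it, against 32.7% above and 28.9% below over all genes. In Lck-/- cells 16 were above and 11 below, against 26.2% and 29%. A total of 15 members were above and 8 below in both genotypes, against 22.5% and 21.7% of all genes. With the exchanged dye swaps 19 were above and 5 below in WT, against 24.1% and 21.5% of all genes. In Lck-/- they were 10 and 5, against 17.2% and 17.9%. The split depends on where 0 is set. With median centring 40 members were above and 1 below in WT, where 79.8% of all genes were above and 3.51% below. In Lck-/- 15 were above and 2 below, against 24.8% and 6.22%. With the authors' deposited ratios 42 were above and 0 below in WT (94.5% of all genes above), and 27 and 1 in Lck-/- (56.2% above and 3.42% below). With these columns centred the counts were 26 and 5 in WT (32.6% and 32.9% of all genes), and 19 and 12 in Lck-/- (28% and 27%). The members' median was 0.34 in WT and 0.22 in Lck-/-.

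Fen1 had the highest ratio of the set, at 0.98, 1.14, 1.26 and 1.15 in WT and 0.73, 1.13, 0.69 and 1.17 in Lck-/-. Lig1 followed with 0.97, 1.06, 1.02 and 1.07 in WT and 0.75, 0.82, 0.58 and 0.49 in Lck-/-. Both act at the last steps of lagging-strand synthesis, and all 8 extracts of each gene were above 0. Among those above 0 in both genotypes were also Mcm4, Mcm5, Mcm6, Mcm7, Mcm10, Rfc1, Rpa1, Timeless, Pold1 and Pold2. Tipin had the lowest ratio, at -1.14, -0.81, -2.23 and -2.26 in WT and -0.68, -1.75, -1.27 and -1.20 in Lck-/-. Its WT extracts spread widely (SD 0.75, n = 4), and its partner Timeless lay on the other side of 0, at 0.77 in WT and 0.81 in Lck-/-. Gins3, Cdt1, Prim1, Orc6, Cdk2, Cdc6 and Pole were the other members below the typical mRNA in both genotypes, most of which are not below 0 on the uncentred scales. Cdt1, the licensing factor, had -0.58, -0.46, -0.48 and -0.75 in WT and -0.08, -0.16, -0.45 and -0.26 in Lck-/-. Its Lck-/- values were all above the WT values, without a call for the difference (0.33, adjusted p = 0.19).

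**Figure D5:**
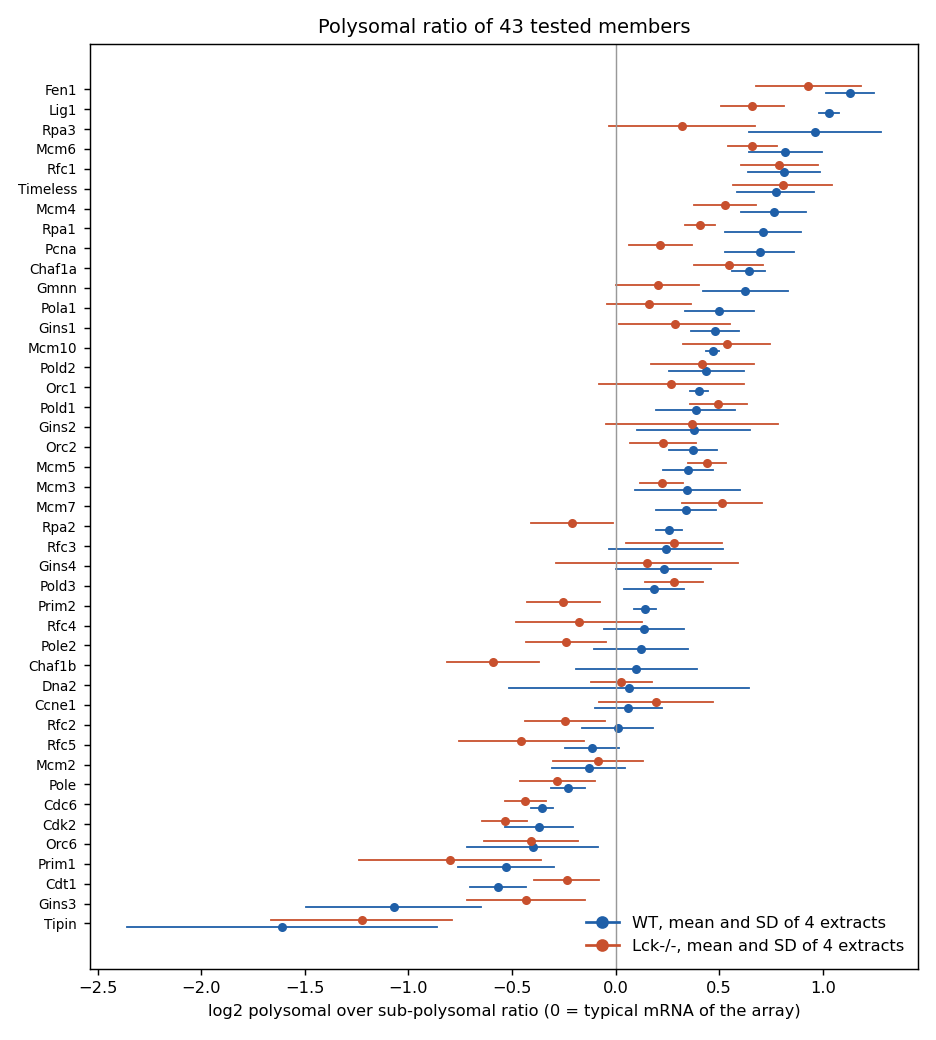
Polysomal over sub-polysomal ratio (log2, horizontal axis; 0 is the typical mRNA of the array) of the 43 tested members in WT and Lck-/-, as mean and SD of 4 extracts, ordered by the WT mean. The order runs from Tipin at -1.61 to Fen1 at 1.13, and no difference between the genotypes was called.

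Promoters were compared for shared words because S-phase genes are known targets of E2F factors. RefSeq start sites (GRCm38.p6) were available for 39 of the 49 members. Each of 4 E2F words (TTTCCCGC, TTTCGCGC, TTTGCCGC and TTTGGCGC, on either strand) was searched in the 250 bases before the start. At least 1 word was found in 9 of 39 members (23.1%), against 2.16% of 27025 genes. Among the called members with a promoter it was found in 3 of 8 (37.5%), and among tested members without a call in 6 of 27 (22.2%). The box CCAAT, on either strand, was in 59% of the members and 37.5% of all genes. These shares describe words in a window and say nothing of binding. The printed stretches run from 20 bases before the outermost word to the start site, on the gene's strand, with the words in capitals. Gins3, Rfc3 and Pola1 were lower in Lck-/-, and Mcm6, Mcm5 and Orc1 had no call, so that both outcomes can be seen beside a word. They lie at chr8:95633498-95633558 (plus), chr5:151651209-151651238 (minus), chrX:93632156-93632313 (minus), chr1:128359706-128359835 (minus), chr8:75109336-75109508 (plus) and chr4:108579407-108579453 (plus), in that order.
Gins3: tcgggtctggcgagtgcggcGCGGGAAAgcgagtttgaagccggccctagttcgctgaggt
Rfc3: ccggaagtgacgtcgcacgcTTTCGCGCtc
Pola1: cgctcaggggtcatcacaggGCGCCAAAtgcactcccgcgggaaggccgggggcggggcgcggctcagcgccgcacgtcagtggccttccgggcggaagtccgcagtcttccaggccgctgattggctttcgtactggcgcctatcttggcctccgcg
Mcm6: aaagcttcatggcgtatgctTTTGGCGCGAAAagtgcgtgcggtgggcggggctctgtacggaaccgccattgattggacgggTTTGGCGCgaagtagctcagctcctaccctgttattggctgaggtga
Mcm5: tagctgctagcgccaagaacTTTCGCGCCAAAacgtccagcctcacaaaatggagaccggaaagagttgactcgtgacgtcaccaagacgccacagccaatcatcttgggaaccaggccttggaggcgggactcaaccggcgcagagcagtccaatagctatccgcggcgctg
Orc1: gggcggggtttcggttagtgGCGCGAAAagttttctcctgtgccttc
In Mcm5 and Mcm6, words on opposite strands overlap in a single run of capitals. The last base of the nearest word lies 34 bases before the start in Gins3, 3 in Rfc3, 131 in Pola1, 40 in Mcm6, 142 in Mcm5 and 20 in Orc1.

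Other cell cycle lists were set beside the members in the mean of both fractions, where 11.1% of all genes were lower and 8.91% higher. Of 32 tested genes with further roles in replication, 4 were lower and 1 was higher, with a median of -0.14; Dscc1, of an alternative clamp loader, had -0.70 (adjusted p = 0.0032). Of 9 genes of nucleotide synthesis for DNA, 3 were lower, among them the thymidine kinase Tk1 (-0.88, adjusted p = 0.0031). Of 20 genes of the E2F and RB pathway, 3 were lower and 1 was higher, namely the CDK phosphatase Cdc25a (0.79, adjusted p = 0.0077). Of 14 S-phase repair genes, 6 were lower and 1 was higher. Of 21 mitosis genes, 20 were lower, with a median of -1.13; Cdk1 had -1.16 (adjusted p = 0.00042) and Bub1 also had -1.13. Of 12 replication-dependent histone genes, 9 were lower, with a median of -1.17, and H3c1 had -1.85 (adjusted p = 0.00036). The median of the 49-gene set, -0.22, was thus smaller in size than those of mitosis and histone genes, a difference that was not tested. None of 10 housekeeping genes was called (median 0.06). Without WT replicates 1 and 2, where 5.6% of all genes were lower, the lower counts were 3 for further replication genes, 2 for nucleotide synthesis, 0 for E2F and RB, 1 for repair, 16 for mitosis and 5 for histones. With the exchanged dye swaps, where 9.87% of all genes were lower, E2F and RB had 2 lower, and the lower counts of the other lists were as above.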

How the data were processed

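The deposited scanner files hold spot intensity values for the Cy3 and Cy5 channels with flags for background, saturation and outliers, made with Feature Extraction 10.7.3.1 per the file headers. Mean spot signals were background-corrected (normexp, offset 50), normalized by loess within arrays with controls and outliers at weight 0, and scaled by Aquantile between arrays in limma 3.58.1 (R 4.3.3). Both arrays of each extract were then averaged. The ratio was tested where, in each genotype, 6 or more of the 8 arrays had the brightest probe of the gene well above background in the polysomal and the sub-polysomal channel. A pool's level needed its own channel, and the mean needed both, to pass in at least 1 genotype. Differences are log2 values from lmFit and eBayes over the 8 extracts, with Benjamini-Hochberg adjustment over all genes and a threshold of 0.05. The authors' deposited table gives the polysomal ratio as normalised log2 values, made with limma per the submitters' processing notes, and served as an alternative. Members were found by the gene names of the array's design or their older aliases. Other genes were named through RefSeq, by accession, then by symbol, then by synonym. Probe coordinates are those of the array's design (mm9). Promoters came from RefSeq.

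The members and all gene lists were chosen with earlier results of these data known, so their counts are descriptions. Members named with values per extract are, in each role, the 3 with the largest absolute difference in the mean (2 where the role has 3 or fewer members) and the 1 with the smallest, those called in the ratio or called higher, and those not tested; from other lists, at most 3 by adjusted p. Further called members and the rest of the GINS and MCM sets were named after their values were seen, as were other genes near a call. Alternatives covered background, normalization, filter, probe choice, dye, slide, dye-swap pairing, replicate block and each extract left out; 1, without the first array of Lck-/- replicate 1, was added after seeing the data.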

Additional observations from a re-analysis of the deposited data

Results flagged for a closer look

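In 4 of 88 groups of 4 extracts, 1 extract lay far from the other 3 in the mean of both fractions; chance marks about 1 in 20 groups. Mcm2 was 12.56 in Lck-/- replicate 2, against 12.18 to 12.22 in the others. Pcna was 14.19 in WT replicate 3, against 14.58 to 14.66. Rfc4 was 12.71 in WT replicate 4, against 12.90 to 12.94. Pole was 10.96 in Lck-/- replicate 2, against 11.34 to 11.40.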

How the results depend on the processing

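Leaving out each extract in turn gave 10 to 15 members lower in the mean of both fractions, 7 to 14 in the polysomal pool, 6 to 11 in the sub-polysomal pool and 0 to 2 changed in the ratio. Of all genes, 7.08% to 11.8% were then lower in the mean, 5.15% to 11.3% in the polysomal pool and 6.65% to 11.6% in the sub-polysomal pool. In the ratio 0.0589% to 1.71% of all genes were lower. The members off 0 in the ratio then numbered 26 to 31 in WT and 21 to 32 in Lck-/-. In WT 28.5% to 35.7% of all genes were above 0 and 25% to 31% below. In Lck-/- these shares were 20.7% to 31.5% and 23.4% to 29.9%. Polysomal counts were 30 with median centring (21.2% of all genes) and 33 without within-array normalization (28.1%). They were 0 with the pool in Cy5 only (1.32%), 4 in Cy3 only (2.28%) and 0 within slide 1 (0.651%). With exchanged dye swaps the count was 6 (4.82%), and without WT replicates 1 and 2 it was 2 (2.11%). Sub-polysomal counts turned to 3 lower and 10 higher with median centring (36.6% of all genes higher). Without within-array normalization they were 3 lower and 11 higher (37.1%). Lower counts were 5 with the polysomal pool in Cy5 only (4.68% of all genes), 5 with it in Cy3 only (3.58%) and 1 within slide 2 (1.39%). They were 6 without scaling (6.56%) and 6 without WT replicates 1 and 2 (6.98%). Ratio counts were 36 with median centring (55.4% of all genes lower), 41 without within-array normalization (70.6%), 42 from the authors' deposited ratios (88.9%) and 6 with these centred (3.53%). They were 1 under the 16-array filter (1.52%), mean over probes (1.07%), slide 2 (0.0237%), slide and dye terms (1.78%), and an intensity trend (1.41%). Members off 0 in WT were 19 in Cy3 only (22.5% of all genes above and 24.5% below). Without WT replicates 1 and 2 they were 18 (21.9% and 21.4%). In Lck-/- they were 17 with median centring (24.8% and 6.22%) and 12 in Cy3 only (18% and 19.4%). Within slide 1 the Lck-/- count was 16 (14.6% and 18.5%), and with exchanged dye swaps it was 15 (17.2% and 17.9%). The cause of these changes was not tested.

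Some small differences changed sign without a call. Agilent's signals gave Ccne1 0.0058, Orc2 0.0070 and Timeless 0.014; Cy5 only gave Ccne1 0.040 and Mcm6 0.040. Slide 1 gave Ccne1 0.057, Lig1 0.069, Mcm6 0.022 and Pold3 -0.056. Without WT replicates 1 and 2, Ccne1 was 0.10, Lig1 0.26, Mcm6 0.049 and Timeless 0.12. Sub-polysomal Rfc4 was 0.053 with median centring and 0.056 without within-array normalization. Leaving out 1 extract gave Ccne1 -0.095 to 0.072, Lig1 -0.21 to 0.048, Mcm6 -0.21 to 0.020, Orc2 -0.13 to 0.060, Pold3 -0.037 to 0.12 and Timeless -0.13 to 0.061. With the replicate block, 13, 12 and 7 members were lower in the mean, polysomal and sub-polysomal values. The shares of all genes were 9.3%, 8.31% and 7.39%. In the ratio 0 members changed with this block, where 0.0589% of all genes were lower. Correlations of same-numbered extracts (-0.07, -0.09, 0.43 and -0.21 in the mean) were not all above 0.1, so the numbers were not taken as pairs. Dim members, such as Chek1 and Ccne2, could not be tested at this signal.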
